A study of Mus musculus with 11 samples.

Results

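The genes described here encode the DNA repair machinery and the topoisomerases, and they were chosen by name as a set of 49 genes covering damage signalling, the main repair pathways, the topoisomerases and the enzymes that clear trapped topoisomerases from DNA. The deposited table of 17118 mouse genes held 48 of them; Brca1 was not analysed here. Hippocampal tissue was taken with a 0.2 mm punch from frozen brain slices of female C57/BL6 mice (genotype label C57/BL6J), aged 12 weeks at treatment, and its messenger RNA was sequenced. In the AC-T group, doxorubicin at 2 mg/kg was injected intraperitoneally together with 50 mg/kg cyclophosphamide in 4 weekly doses, and paclitaxel at 5 mg/kg followed in a further 4. The saline group was given 0.9% saline in 8 weekly injections. Samples of both groups carry a 1-month label. AC-T mice 501, 502, 503, 600 and 602 gave 5 libraries, and 6 came from saline mice 201, 202, 203, 300, 301 and 302. The series states 6 samples per group, and 5 AC-T libraries were analysed here.

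Doxorubicin traps type II topoisomerases, which cut both DNA strands to untangle DNA, in the middle of their reaction. Cyclophosphamide is activated in the body to an alkylating agent that links DNA strands to each other, and paclitaxel stabilises microtubules. Cells answer strand breaks with the kinases Atm, Atr and Prkdc, seal single-strand breaks with the help of Parp1, and remove bulky or mispaired bases by nucleotide excision and mismatch repair. Most hippocampal cells no longer divide. In such cells repair relies mainly on excision repair and end joining, because homologous recombination needs a copied chromosome as its template, and Top2b is the type II topoisomerase of non-dividing cells while Top2a belongs to dividing ones.

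Of the 48 genes, 45 had enough reads to be tested, and 5 of the 45 (11.1%) were higher in AC-T hippocampus with a Benjamini-Hochberg adjusted p under 0.05 in edgeR's quasi-likelihood test. They were Top2b, Top1, Parp1, Ddb1 and Msh3. Over all 15353 genes tested, 8.47% passed in either direction, 4.89% as higher and 3.58% as lower. No repair gene passed as lower. At an unadjusted p under 0.05, 7 of the 45 (15.6%) were lower, against 10.9% of all genes tested. DESeq2 called 2 of the 45 lower, and limma-voom called 0. The counts within single pathways, given below, are too small to set against these shares. The changes that passed were small, between 1.10-fold and 1.17-fold, and 26 of the 45 genes lay within 1.1-fold of their saline level. The median log2 fold change of the 45 genes was −0.002, against −0.003 over all genes tested, and their median absolute log2 fold change was 0.10, against 0.11. In whole tissue, more cells of a type and more RNA per cell cannot be told apart.

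The sequences upstream of the 5 genes, and of Top2a as the paralogue of Top2b used by dividing cells, show how their promoters differ in letters. They are the 250 bases before the annotated RefSeq start on build GRCm38.p6, an older build than the GRCm39 named in the submitters' notes, so only these windows carry coordinates. Capitals mark the CCAAT box (CCAAT or its reverse complement ATTGG) and the GC box (GGGCGG or CCGCCC), searched on both strands; these motifs do not overlap each other here. The windows lie at chr14:16364956-16365205 (plus strand) for Top2b, chr11:99024190-99024439 (minus strand) for Top2a, chr2:160645647-160645896 (plus strand) for Top1, chr1:180568641-180568890 (plus strand) for Parp1, chr19:10605347-10605596 (plus strand) for Ddb1 and chr13:92355004-92355253 (minus strand) for Msh3.
Top2b: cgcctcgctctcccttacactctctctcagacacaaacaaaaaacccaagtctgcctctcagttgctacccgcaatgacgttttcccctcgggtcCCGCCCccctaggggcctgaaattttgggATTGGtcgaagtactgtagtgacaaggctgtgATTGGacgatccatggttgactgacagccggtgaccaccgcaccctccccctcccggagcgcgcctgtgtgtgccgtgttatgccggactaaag
Top2a: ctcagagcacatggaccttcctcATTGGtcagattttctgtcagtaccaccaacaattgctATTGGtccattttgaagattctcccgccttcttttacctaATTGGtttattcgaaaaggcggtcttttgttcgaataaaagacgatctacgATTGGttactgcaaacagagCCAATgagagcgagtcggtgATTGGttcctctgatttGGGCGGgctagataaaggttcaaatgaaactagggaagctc
Top1: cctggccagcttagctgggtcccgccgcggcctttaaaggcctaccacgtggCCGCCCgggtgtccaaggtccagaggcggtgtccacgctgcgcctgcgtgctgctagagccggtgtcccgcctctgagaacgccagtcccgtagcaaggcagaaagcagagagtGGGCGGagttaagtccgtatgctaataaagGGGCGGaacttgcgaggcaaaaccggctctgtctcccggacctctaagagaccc
Parp1: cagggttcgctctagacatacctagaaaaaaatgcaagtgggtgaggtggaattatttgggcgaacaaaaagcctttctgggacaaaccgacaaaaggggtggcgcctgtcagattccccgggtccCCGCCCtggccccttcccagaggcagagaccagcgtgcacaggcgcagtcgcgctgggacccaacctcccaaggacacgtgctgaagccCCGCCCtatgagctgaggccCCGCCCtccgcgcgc
Ddb1: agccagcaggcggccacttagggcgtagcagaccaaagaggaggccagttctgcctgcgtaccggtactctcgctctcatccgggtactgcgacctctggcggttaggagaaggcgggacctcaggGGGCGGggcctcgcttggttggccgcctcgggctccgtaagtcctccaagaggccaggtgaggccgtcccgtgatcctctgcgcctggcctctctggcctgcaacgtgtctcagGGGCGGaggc
Msh3: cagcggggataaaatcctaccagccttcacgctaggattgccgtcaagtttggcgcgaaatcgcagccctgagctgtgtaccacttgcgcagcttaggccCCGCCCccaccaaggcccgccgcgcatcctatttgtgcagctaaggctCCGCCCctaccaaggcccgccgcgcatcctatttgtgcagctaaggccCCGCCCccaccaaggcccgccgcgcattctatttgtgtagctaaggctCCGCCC

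The Top2b window held 2 CCAAT boxes and 1 GC box, and the Top2a window held 6 CCAAT boxes and 1 GC box. The windows of Top1, Parp1, Ddb1 and Msh3 held no CCAAT box, and 3, 3, 2 and 4 GC boxes. Among all 32851 RefSeq promoter windows of this length, 33.8% held a CCAAT box, 32.7% a GC box, and 0.213% at least 5 CCAAT boxes. Among the 13669 windows of tested genes, 34.7% held a CCAAT box and 56.4% a GC box. In 43 windows matched to 38 of the 48 repair genes the shares were 44.2% and 62.8%. These are matches of letters, not measured binding sites.

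Each library held between 23.4 and 32.1 M counts (M, mega), of which the 48 genes took 0.0925% to 0.105%. Values are normalised read counts (CPM, scaled to a common library size), and each ± is an SD over mice. All 8 dentate granule neuron markers and 8 of 9 CA1 markers were above 0 in every library, and these are neurons of the labelled tissue. The groups differed in regional markers, and each comparison stands beside these values. After AC-T, 13 of 14 thalamic markers passed as lower, and their summed level was 742 to 1074 CPM in AC-T libraries and 1405 to 2123 CPM in saline libraries. Of 9 CA1 markers 1 passed as higher, and their summed level was 554 to 704 CPM after AC-T and 165 to 450 CPM after saline. The mean log2 CPM of each list separated the groups at an exact permutation p of 0.00433, the smallest p the 2-sided test can give with these group sizes. The marker lists were chosen with earlier results of these data known, so the permutation p-values of the scores are descriptive. The endothelial score was 4.84 in AC-T libraries and 5.03 in saline libraries (exact permutation p = 0.0216), with 1 of 8 markers passing as lower. Of 9 astrocyte markers 2 passed as lower (score exact permutation p = 0.139). In the other 6 lists, dentate granule neuron, dividing cell, microglia, oligodendrocyte lineage, choroid plexus and blood, the lowest exact permutation p of a score was 0.0606. Neither the thalamic nor the CA1 score overlapped between the groups: the thalamic one was 5.15 to 5.73 in AC-T libraries and 6.07 to 6.84 in saline libraries, and the CA1 one 5.63 to 6.00 in AC-T libraries and 3.15 to 5.27 in saline libraries. Treatment and these regional markers therefore cannot be told apart. With the thalamic score as a covariate, 0 of the 45 genes passed in edgeR and 0 had an unadjusted p under 0.05, while with the CA1 score 0 passed and 4 had one. Mouse numbers begin with 5 or 6 in the AC-T group and with 2 or 3 in the saline group, here called number series, and their meaning is not given in the labels. No series holds both treatments, so series and treatment cannot be told apart. Saline 300 was listed at 0 for Xist, the RNA of the inactive X chromosome, whereas the other 10 had 13057 to 22963 counts; all mice are labelled female. Without saline 300, Top2b (adjusted p = 0.0109) and Ddb1 (0.0331) passed, and Top1 (0.0579), Msh3 (0.0651) and Parp1 (0.0839) did not.

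Among topoisomerases, Top2b and Top1 were higher after AC-T, and of the 6 tested genes in this group 2 passed. Top2b, the type II enzyme of neurons and a target of doxorubicin, was at 88.1, 94.3, 88.3, 88.2 and 92.1 CPM in AC-T mice 501, 502, 503, 600 and 602. In the saline mice its lowest, median and highest values were 73.7, 78.1 and 81.2 CPM. Every AC-T library lay above every saline library. The means were 90.2 ± 2.86 CPM after AC-T (n = 5) and 77.8 ± 2.73 CPM after saline (n = 6), a 1.16-fold difference (log2 0.21 ± 0.036 SE, adjusted p = 0.00705). Top2b passed without any single library (adjusted p from 0.0109 to 0.0226) and with number series as a random effect (0.0411). It did not pass with the thalamic score as covariate (log2 0.13, adjusted p = 0.636), with the CA1 score (0.19, 0.205) or without series 5 (0.21, 0.0649).

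Top1, the type I enzyme that relaxes DNA ahead of transcription by cutting 1 strand, stood at 67.5, 73.7, 61.9, 68.0 and 69.9 CPM in the AC-T mice in the same order. Saline mice ranged from 55.0 to 62.9 CPM around a median of 59.4 CPM. AC-T mouse 503 fell inside the saline range and the other 4 AC-T mice lay above it. The means were 68.2 ± 4.27 CPM after AC-T and 59.0 ± 2.75 CPM after saline (1.16-fold, log2 0.21 ± 0.049 SE, adjusted p = 0.0262). Top1 lost the call when AC-T 502 (adjusted p = 0.0659), AC-T 600 (0.0515), AC-T 602 (0.0649), saline 202 (0.0543) or saline 300 (0.0579) was left out, and with number series as a random effect (0.116).

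Top2a, the type II enzyme of dividing cells, was listed at 0 in 9 of 11 libraries and could not be tested. Its values above 0 were 77 counts (2.54 CPM) in AC-T mouse 600 and 31 counts (1.20 CPM) in saline mouse 202. How a 0 came to be listed is not given in the sources used here; it may stand for a low value and not for a count of 0, so no fold is given. Of 11 dividing-cell markers in the table, AC-T 600 had 10 above 0 and the highest list score, 1.19 log2 CPM. The other 4 AC-T libraries scored −0.08 to 0.41 with 7 or 8 markers above 0, and the saline libraries scored −0.08 to 0.31 with 7 or 8. Saline 202, the other library with Top2a, had 7 markers above 0 and the lowest score of all, −0.08.

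The remaining topoisomerase genes did not pass. Tdp1, which removes trapped topoisomerase I from DNA ends, was at 11.5, 13.3, 13.2, 12.6 and 13.3 CPM after AC-T, against 10.8 to 12.5 CPM after saline (median 11.5). It was 1.11-fold higher with an adjusted p of 0.136. Tdp2, which does the same for topoisomerase II, was at 16.6, 15.1, 14.3, 15.0 and 13.4 CPM after AC-T, against 13.7 to 16.7 CPM (median 14.7) after saline, and its 95% interval ran from 0.89-fold to 1.10-fold. For both enzymes the groups overlapped. Top3a, a type I enzyme that resolves crossed strands, was at 5.14 ± 0.422 CPM after AC-T and 5.68 ± 0.700 CPM after saline (adjusted p = 0.432). Top3b, its paralogue that also acts on RNA, was at 35.5 ± 5.12 CPM after AC-T and 37.0 ± 3.27 CPM after saline (adjusted p = 0.747).

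**Figure D1:**
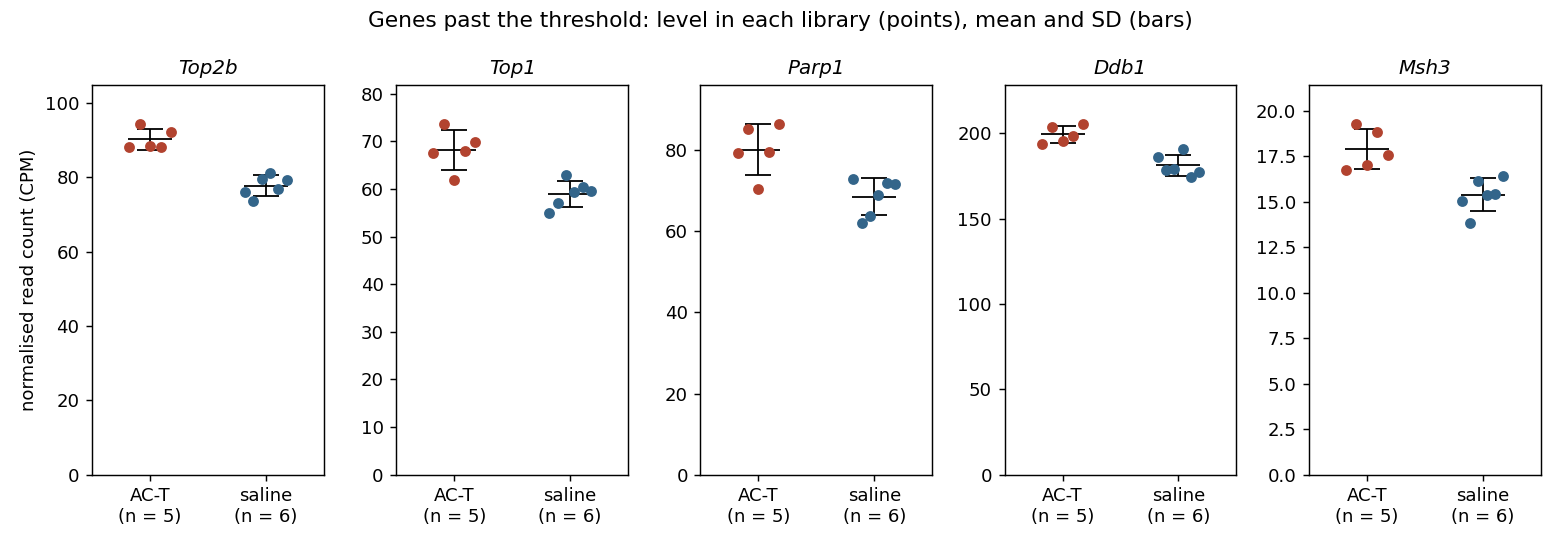
Normalised read counts (CPM, linear axes) of Top2b, Top1, Parp1, Ddb1 and Msh3 in each AC-T library (left, n = 5) and saline library (right, n = 6), with mean and SD bars. The AC-T libraries of Top2b, Ddb1 and Msh3 all lie above the saline libraries, while Top1 and Parp1 overlap in 1 AC-T library each.

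In base excision and single-strand break repair, which removes damaged bases and reseals the strand, 1 of 9 genes passed. Parp1, the enzyme that marks single-strand breaks with chains of ADP-ribose, was at 79.2, 85.2, 70.4, 79.5 and 86.5 CPM in AC-T mice 501, 502, 503, 600 and 602, against 62.0, 70.3 and 73.0 CPM as the lowest, median and highest of the saline mice. AC-T 503 lay within the saline range, and the other 4 AC-T mice lay above it. The means were 80.2 ± 6.38 CPM after AC-T and 68.6 ± 4.61 CPM after saline, 1.17-fold higher after AC-T (log2 0.23 ± 0.062 SE, adjusted p = 0.0461). This call held in 2 of 11 fits that each left out a library, with adjusted p between 0.0219 and 0.116. It was lost without AC-T 501 (0.0740), 502 (0.116), 600 (0.0814) or 602 (0.108), and without saline 202 (0.0853), 203 (0.0896), 300 (0.0839), 301 (0.0592) or 302 (0.0536). With number series as a random effect the adjusted p was 0.152.

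The other 8 genes of this pathway did not pass. Apex1, the endonuclease that cuts the DNA backbone at sites that have lost a base, was at 30.7, 36.4, 29.4, 30.5 and 29.9 CPM after AC-T, against 25.1 to 30.6 CPM after saline (1.13-fold, adjusted p = 0.135). Xrcc1, the scaffold that Parp1 recruits, was at 19.6, 19.2, 18.7, 21.1 and 21.5 CPM after AC-T, against 18.1, 18.7 and 22.0 CPM as the lowest, median and highest after saline. Its 95% interval ran from 0.96-fold to 1.14-fold. Parp2, the second enzyme of this kind, was at 13.4 ± 0.989 CPM after AC-T and 13.3 ± 0.600 CPM after saline (0.93-fold to 1.10-fold). Of the DNA ligases, Lig1, which joins newly copied strands, was at 7.58 ± 0.539 CPM after AC-T and 8.78 ± 1.13 CPM after saline (adjusted p = 0.175). Lig3, the partner of Xrcc1, was at 27.8 ± 2.73 CPM after AC-T and 27.1 ± 1.63 CPM after saline (adjusted p = 0.787). The glycosylases that cut out damaged bases were low, with Ogg1 at 5.59 ± 0.345 CPM after AC-T and 5.62 ± 0.749 CPM after saline (adjusted p = 0.974), and Mutyh at 1.76 ± 0.397 CPM after AC-T and 2.15 ± 0.367 CPM after saline (adjusted p = 0.428). Ung was at 1.34 to 1.91 CPM after AC-T; after saline it was listed at 0 in mouse 302 and reached 2.62 CPM.

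In nucleotide excision repair, which cuts out bulky lesions, 1 of 10 genes passed. Ddb1, an adaptor of a ubiquitin ligase that binds damaged DNA together with Ddb2, was at 194, 204, 196, 199 and 206 CPM after AC-T. The saline mice were at 175, 179 and 191 CPM (lowest, median and highest), so the groups did not overlap. The means were 199.5 ± 5.03 CPM after AC-T and 181 ± 6.20 CPM after saline (1.10-fold, log2 0.14 ± 0.036 SE, adjusted p = 0.0355). Ddb1 kept its call in 4 of 11 fits that left out a library, and lost it without AC-T 502 (0.0820), 600 (0.0658) or 602 (0.0844) or saline 202 (0.0680), 203 (0.0712), 301 (0.0717) or 302 (0.0620). With number series as a random effect its adjusted p was 0.145. Ddb2 itself was at 11.8 ± 1.17 CPM after AC-T and 13.0 ± 1.15 CPM after saline (0.91-fold, adjusted p = 0.308).

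No other gene of this pathway passed in edgeR. Ercc2, a helicase of the transcription factor TFIIH, was at 30.9, 29.4, 31.0, 33.6 and 31.7 CPM after AC-T, against 32.2, 34.6 and 37.2 CPM as the lowest, median and highest after saline. AC-T 600 lay inside the saline range and the other 4 AC-T mice lay below it. The ratio was 0.91 with an adjusted p of 0.0940, and DESeq2 placed it past the threshold (adjusted p = 0.0221). The nuclease Ercc4 was at 21.0 ± 1.18 CPM after AC-T and 23.0 ± 1.33 CPM after saline (adjusted p = 0.144), and the nuclease Ercc5 at 20.5 ± 0.973 CPM after AC-T and 22.0 ± 0.951 CPM after saline (adjusted p = 0.182). Ercc6, which frees stalled RNA polymerase, was at 25.5 ± 0.539 CPM after AC-T and 23.8 ± 1.32 CPM after saline (1.07-fold, adjusted p = 0.166). The helicase Ercc3 was at 28.4 ± 2.13 CPM after AC-T and 27.2 ± 1.07 CPM after saline (adjusted p = 0.476). For Ercc1, the partner of Ercc4, and for the damage sensors Xpa and Xpc, the ratio of AC-T to saline lay between 0.97 and 0.99 with adjusted p of 0.839 or more.

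In mismatch repair, which corrects mispaired and looped-out bases, 1 of 3 genes passed. Msh3, which recognises larger loops, was at 16.7, 19.3, 17.0, 18.8 and 17.6 CPM in the AC-T mice, against 13.9, 15.4 and 16.4 CPM (lowest, median and highest) in the saline mice. The groups did not overlap. The means were 17.9 ± 1.11 CPM after AC-T and 15.4 ± 0.900 CPM after saline (1.16-fold, log2 0.22 ± 0.055 SE, adjusted p = 0.0333). With the thalamic score as covariate the log2 difference of Msh3 was 0.04 (adjusted p = 0.939). It held in 4 of 11 fits without a library, and was lost without AC-T 502 (0.0853), 600 (0.0738) or 602 (0.0651) or saline 201 (0.0556), 202 (0.0580), 300 (0.0651) or 301 (0.0582), and with number series as a random effect (0.144). Msh6, which recognises single mismatches, was at 17.9 ± 0.964 CPM after AC-T and 17.4 ± 1.09 CPM after saline (0.95-fold to 1.12-fold), and Pms2, the endonuclease subunit, at 15.5 ± 0.569 CPM after AC-T and 15.5 ± 1.08 CPM after saline (0.92-fold to 1.09-fold). Pms2 had fractional counts in all 11 libraries and Msh6 in 2. Reads divided among similar sequences, as in Salmon, can give such values, so both genes are treated as less certain. Which step wrote the counts is not given in the sources used here.

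Groups that did not overlap were seen for 3 of the 45 genes (6.67%), Top2b, Ddb1 and Msh3, each higher after AC-T, against a background of 7.52% of all genes tested in either direction, 4.42% as higher and 3.1% as lower. At an unadjusted p under 0.05 there were 16 of 45 genes (35.6%), 9 higher and 7 lower, against 24.9% of all genes. A further 3 genes had an adjusted p between 0.05 and 0.1, namely Fancl, Atr and Ercc2. The median log2 fold change was 0.06 over the 6 tested topoisomerase and adduct genes, 0.01 over 9 base excision genes, −0.03 over 10 nucleotide excision genes, 0.04 over 3 mismatch repair genes, −0.03 over 5 end joining genes, −0.003 over 6 recombination genes and −0.21 over 3 signalling genes. No median is given for the 3 tested genes of crosslink repair and direct reversal, because Mgmt and Fancd2 were listed at 0 in some libraries. The median coefficient of variation among the 45 genes was 7.13% in AC-T mice and 7.52% in saline mice; over all genes tested it was 8.67% in AC-T mice and 8.81% in saline mice.

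**Figure D2:**
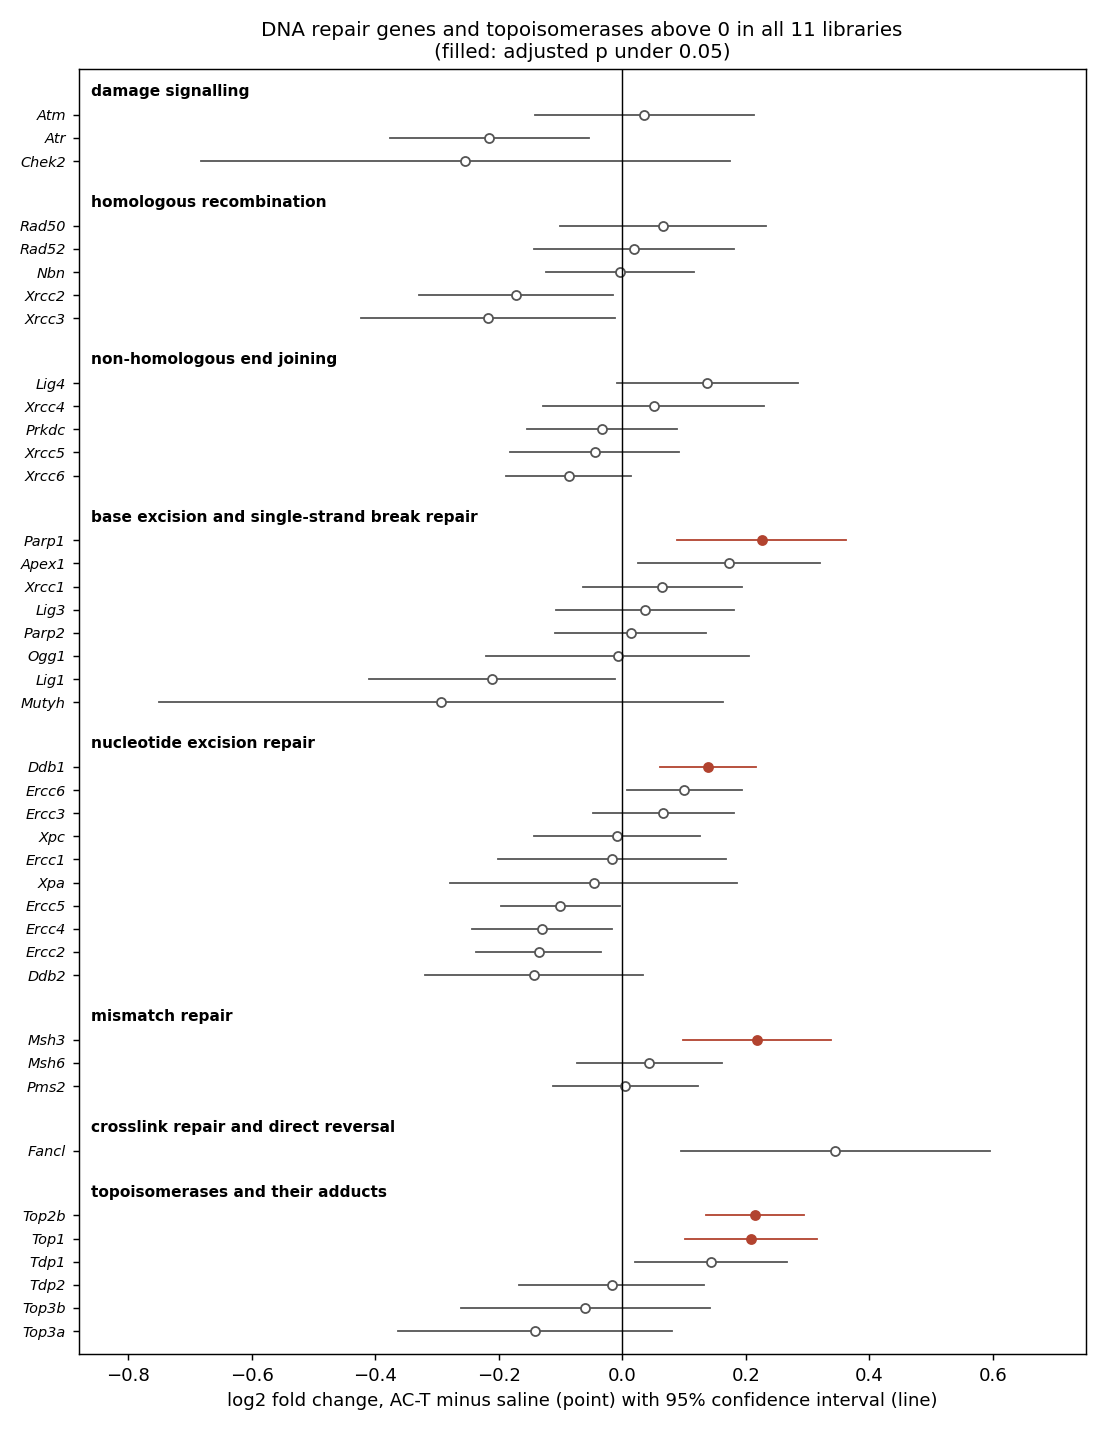
Log2 fold change (AC-T minus saline) of the 41 repair and topoisomerase genes above 0 in all 11 libraries, as points with 95% intervals from edgeR, grouped by pathway. The filled points past the threshold are Top2b, Top1, Parp1, Ddb1 and Msh3, between 0.14 and 0.23, and most other intervals cross 0.

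Crosslink repair and direct reversal act on the lesions that alkylating drugs make. None of these genes passed in edgeR. Of the 3 tested, 1 was higher at an unadjusted p under 0.05, against 14.0% of all genes tested, and DESeq2 called that gene higher. It was Fancl, the ubiquitin ligase of the Fanconi pathway, which unhooks crosslinked strands. Fancl was at 5.71, 5.29, 5.82, 6.13 and 4.66 CPM after AC-T, against 3.38, 4.30 and 5.11 CPM (lowest, median and highest) after saline. AC-T 602 fell inside the saline range and the other 4 AC-T mice lay above it. The ratio was 1.27 (adjusted p = 0.0851; DESeq2 adjusted p = 0.0281). Mgmt, which pulls alkyl groups directly off guanine, was low, at 0.687, 0.657, 0.565, 1.05 and 0.813 CPM after AC-T (17 to 32 counts). In saline mice it was listed at 0 in mouse 203 and reached 0.772 CPM at most.

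Fancd2, the protein that Fancl modifies, was listed above 0 in 4 of 5 AC-T mice, at 3.13 to 4.02 CPM, and at 0 in AC-T 502. In saline mice it was above 0 in 2 of 6, at 2.64 and 3.25 CPM, both of series 3. Fanca, a core subunit, was listed above 0 in saline 203 alone, at 42 counts. For the same reason no fold is given for Fancd2, Fanca or Mgmt. With the zeros taken as counts, the edgeR adjusted p of Fancd2 was 0.575.

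**Figure D3:**
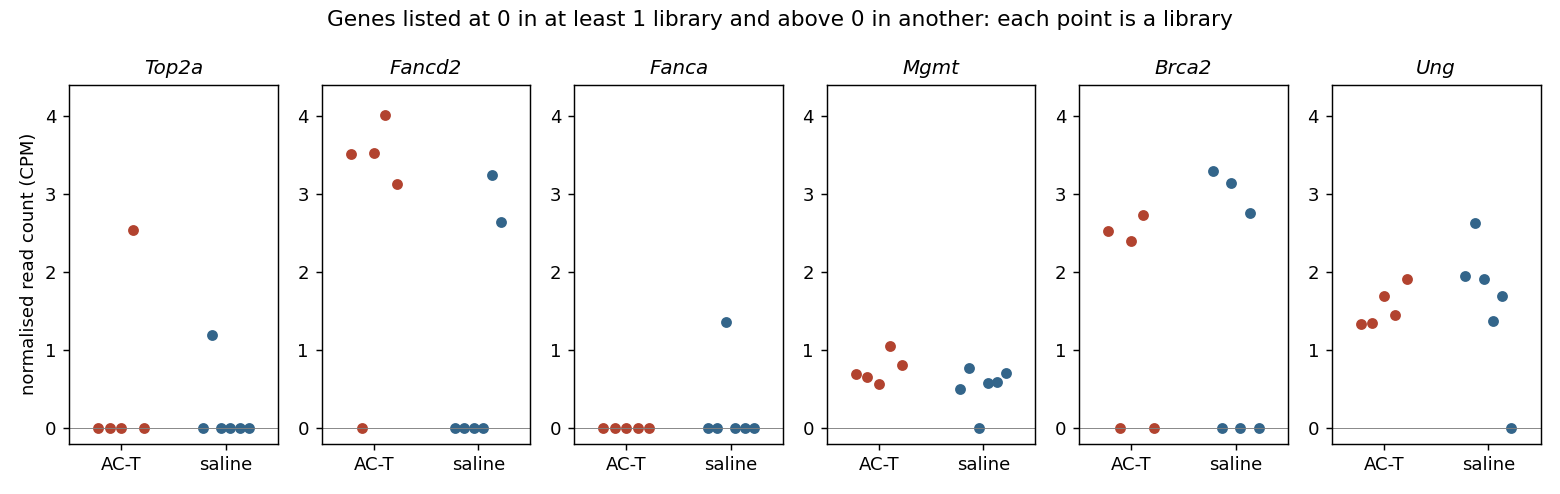
Normalised read counts (CPM) of the 6 genes that were listed at 0 in some libraries and above 0 in others, for AC-T (left) and saline (right) libraries. Points at 0 are listed as 0 in the table; Fancd2 is above 0 in 4 of 5 AC-T and 2 of 6 saline libraries, and Top2a in 1 of each.

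Damage signalling, homologous recombination and end joining held no gene past the edgeR threshold, 0 of 14 tested. At an unadjusted p under 0.05 in edgeR, 3 were lower, against 10.9% of all genes tested, and DESeq2 called 1 lower. Atm, the kinase that answers double-strand breaks, was at 14.1, 15.4, 13.5, 13.9 and 13.7 CPM after AC-T, against 11.2, 13.9 and 15.4 CPM (lowest, median and highest) after saline. Its 95% interval ran from 0.91-fold to 1.16-fold. Atr, the kinase that answers stalled replication, was at 10.5, 10.7, 9.98, 10.7 and 11.1 CPM after AC-T, against 10.2, 12.5 and 13.7 CPM (lowest, median and highest) after saline. AC-T 503 lay under the saline range and the other 4 AC-T mice lay inside it, below its median (0.86-fold, adjusted p = 0.0944). Atr passed as lower in edgeR without saline 202 (adjusted p = 0.0325) and in DESeq2 (0.0270). Chek2, the kinase downstream of Atm, was at 1.76 ± 0.356 CPM after AC-T and 2.10 ± 0.293 CPM after saline (adjusted p = 0.472). Chek1, the kinase downstream of Atr, was listed at 0 in all 11 libraries.

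In homologous recombination, Rad50 (13.9 ± 0.830 CPM after AC-T and 13.3 ± 1.39 CPM after saline) and Nbn (13.9 ± 0.806 CPM after AC-T and 14.0 ± 0.828 CPM after saline), both parts of the complex that binds broken ends, had 95% intervals of 0.93-fold to 1.18-fold and 0.92-fold to 1.08-fold. Xrcc2, which acts in strand exchange, was at 7.37 ± 0.612 CPM after AC-T and 8.31 ± 0.593 CPM after saline (adjusted p = 0.159). Xrcc3, which acts in the same step, was at 10.7 ± 1.48 CPM after AC-T and 12.4 ± 1.08 CPM after saline (adjusted p = 0.175). Rad52, an annealing protein, was at 10.7 ± 0.823 CPM after AC-T and 10.5 ± 0.979 CPM after saline (adjusted p = 0.912). Brca2, a mediator of recombination, was above 0 in 3 of 5 AC-T mice (2.40 to 2.73 CPM) and 3 of 6 saline mice.

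In end joining, Prkdc, the DNA-dependent kinase, was at 24.3, 21.2, 22.2, 22.4 and 23.0 CPM after AC-T, against 20.1, 23.4 and 25.2 CPM (lowest, median and highest) after saline (0.90-fold to 1.06-fold). The broken-end clamp of Xrcc5 and Xrcc6 was at 16.1 ± 1.19 CPM after AC-T and 16.6 ± 1.14 CPM after saline for Xrcc5 and at 14.3 ± 0.413 CPM after AC-T and 15.2 ± 0.839 CPM after saline for Xrcc6 (adjusted p = 0.278). Lig4, the ligase of this pathway, was at 11.8 ± 0.843 CPM after AC-T and 10.7 ± 0.859 CPM after saline (adjusted p = 0.229), and its scaffold Xrcc4 at 7.44 ± 0.601 CPM after AC-T and 7.18 ± 0.719 CPM after saline (adjusted p = 0.756).

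Other genes of the same 8 pathways, 114 on a list written with earlier results known, were matched for 99 and tested for 96. Of these, 4 were higher and 1 lower in edgeR, 5.21% in all, against 8.47% of all genes. Parg, the enzyme that removes the ADP-ribose chains Parp1 builds, was at 31.5 ± 1.39 CPM after AC-T and 26.6 ± 1.23 CPM after saline (1.18-fold, adjusted p = 0.00903). Pcna, the sliding clamp of DNA synthesis, was at 26.9 ± 0.779 CPM after AC-T and 23.0 ± 1.51 CPM after saline (1.17-fold, adjusted p = 0.0181). Pcna had fractional counts too, so its value is less certain. Rad23b, the partner of Xpc, was at 175 ± 10.5 CPM after AC-T and 151 ± 8.09 CPM after saline (1.16-fold, adjusted p = 0.0275). Mlh3, a mismatch repair protein, was at 27.5 ± 1.29 CPM after AC-T and 24.7 ± 1.05 CPM after saline (1.11-fold, adjusted p = 0.0449). For each of these 4 genes the AC-T and saline values did not overlap. Of the 96 tested, 5 lay wholly above saline after AC-T and 1 wholly below. Over all genes tested, the shares were 4.42% above and 3.1% below. The gene named BC029214 in the table, whose identifier belongs to Paxx, an accessory protein of end joining, was at 27.4 ± 2.34 CPM after AC-T and 32.4 ± 2.29 CPM after saline (0.84-fold, adjusted p = 0.0392).

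**Figure D4:**
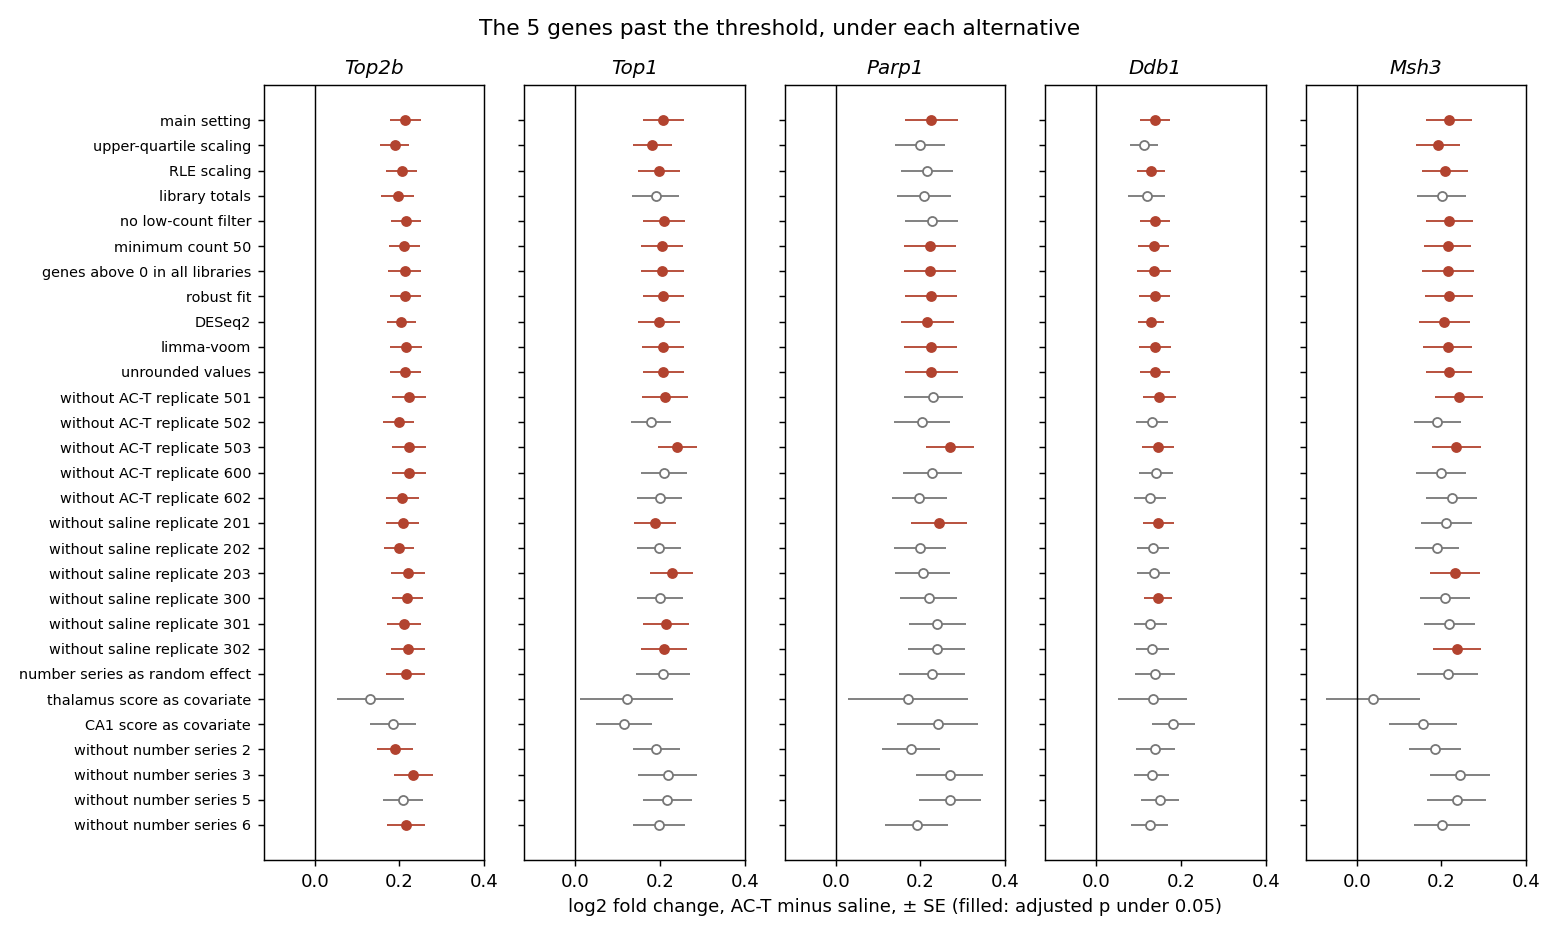
Log2 fold change (AC-T minus saline) of the 5 genes past the threshold, as reported and in 28 alternatives. All values stay above 0, from 0.04 for Msh3 with the thalamic score as covariate to 0.27 for Parp1, and Top2b passed in 25 of 28. The alternatives reuse the same libraries.

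Comparing the number series within a treatment shows how far these genes differ between mice treated alike. Between AC-T series 6 and series 5, 0 of 45 genes passed in edgeR (smallest adjusted p 0.210), while 0.117% of all genes did. An unadjusted p under 0.05 was seen for 5 of the 45, against 13.5% of all genes, and DESeq2 called 1. Between saline series 3 and series 2, 0 of 45 passed in edgeR (smallest adjusted p 0.0866, for Atm), while 1.03% of all genes did. Here 5 of the 45 were under an unadjusted p of 0.05, against 20.1% of all genes, and DESeq2 called 2. The median absolute log2 difference of the 45 genes was 0.09 between the AC-T series and 0.10 between the saline series, beside 0.10 between AC-T and saline. The series comparisons use fewer libraries a side, so spread between mice adds more to them, and the 3 values cannot be compared directly.

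Levels per kilobase of transcript let genes be ordered against each other. Averaged over the 11 libraries and divided by the median annotated transcript length, Ddb1 was at 222 CPM per kilobase, Parp1 at 133, Top2b at 109 and Top1 at 44.0. Divided by the longest transcript, Ddb1 was at 42.5 CPM per kilobase, Apex1 at 23.8, Parp1 at 19.1, Top1 at 16.4 and Top2b at 8.07. Which transcript is used therefore sets much of the order, except that Ddb1 came first both ways. Fanca, Top2a, Mgmt and Brca2 were at the low end, and Chek1 was listed at 0. Of the 5 genes that passed, Msh3 had the lowest level by either length, at 9.20 and 3.88 CPM per kilobase.

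**Figure D5:**
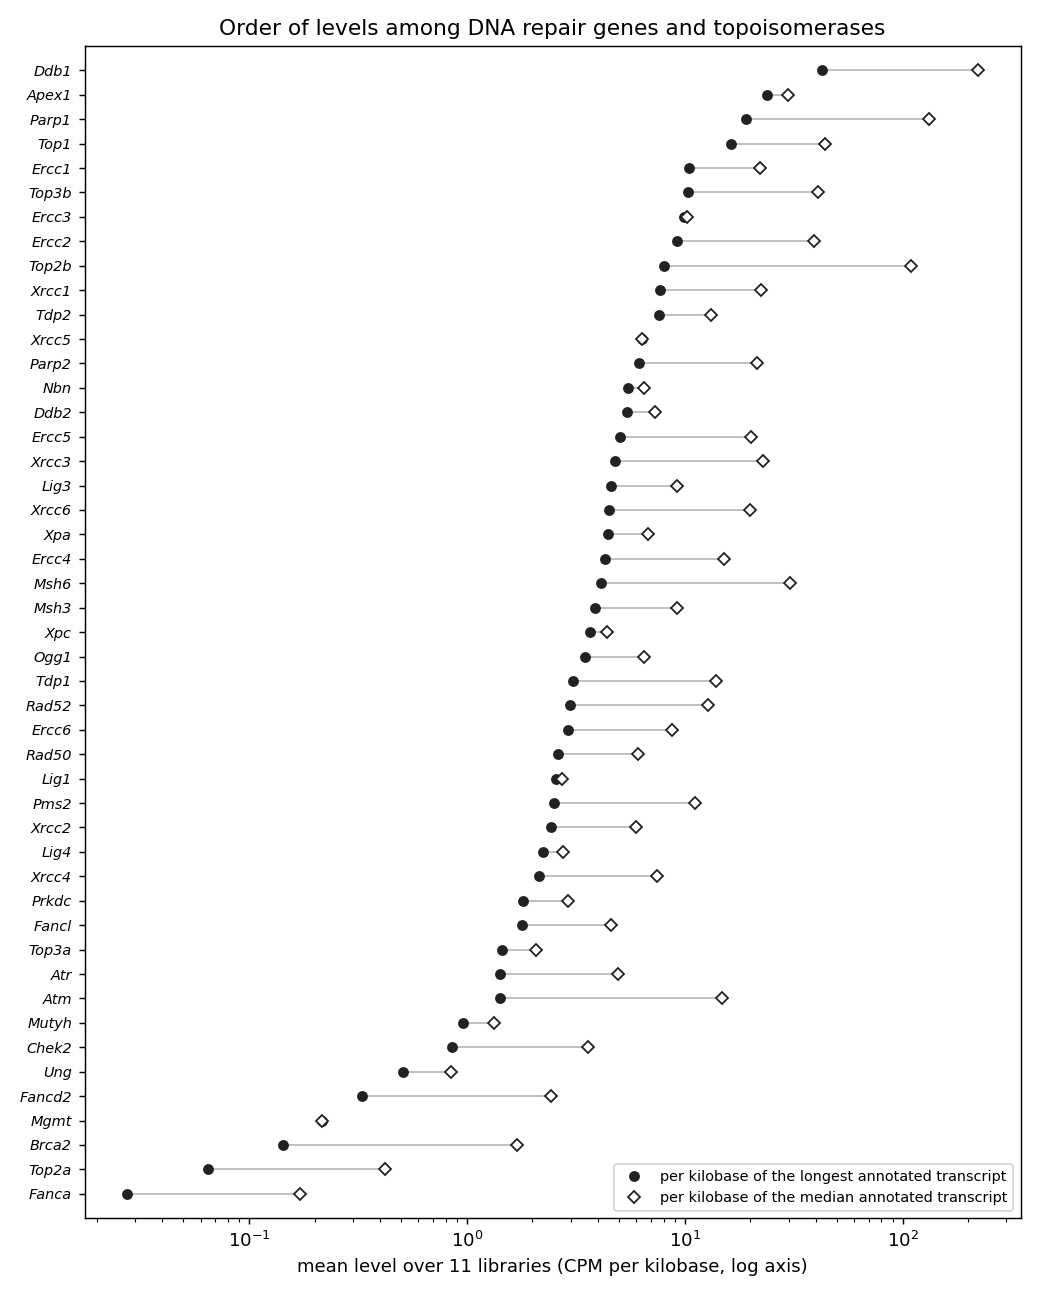
Mean level over 11 libraries (CPM per kilobase, log axis) of the 47 genes above 0 in at least 1 library, per kilobase of the longest (filled) and of the median (open) annotated transcript. Ddb1 is highest by both lengths, and Fanca is lowest by both.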

How the data were processed

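Hippocampal RNA was measured in 5 AC-T and 6 saline libraries. The submitters' processing notes name Dragen 4.3.6, FastQC 0.11.9, Salmon 1.9.0 and build GRCm39; which annotation was used and how genes were selected is not given in the sources used here. The values deposited by the authors are expected counts, of which 13.7% to 14.7% in a library are not whole; they were rounded. Counts were scaled by trimmed mean of M values and filtered with filterByExpr (minimum count 10), and 15353 genes were tested by the 2-sided quasi-likelihood test of edgeR 4.0.16 (R 4.3.3), with Benjamini-Hochberg adjustment over all of them. In simulated AC-T against saline data, the test found 83% of 100 genes set to 1.5-fold and 92% of 100 set to 2-fold, and 3.85% of its calls were false. Changes as small as those called here were not simulated, nor were differences between number series or in regional markers. These rates therefore do not apply to the 5 calls. P-values measure the spread between libraries; the labels number the mice separately. Exact permutation tests used scipy 1.17.1. Alternatives were other scalings, filters and thresholds, DESeq2 1.42.0, limma-voom (limma 3.58.1), number series, marker scores as covariates, and omitted libraries. Transcript lengths came from GENCODE M21, and promoters from RefSeq. Genes past the threshold and a fixed set of drug-related genes are given in every library. The genes and lists were chosen with earlier results of these data known.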

Additional observations from a re-analysis of the deposited data

Results flagged for a closer look

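In 4 cases, the highest or lowest library of a group stood apart from the others by more than Dixon's 95% critical value. Apex1 was at 36.4 CPM in AC-T 502, with the next AC-T library at 30.7 CPM. Rad50 was at 10.6 CPM in saline 202, with the next saline library at 13.2 CPM. Xrcc1 was at 22.0 CPM in the same saline 202 library, with the next at 18.9 CPM. Xpa was at 7.38 CPM in saline 300, with the next at 5.70 CPM. These came from 92 groups of 46 genes, where chance, at about 1 in 20 groups, gives 4.6. Of the 46 genes, 41 belong to the set of 48, and the 4 genes named here are among them.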

How the results depend on the processing

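The 5 genes that passed kept a positive log2 fold change in all 28 alternatives. They were picked by the main fit and the alternatives reuse the same libraries, so this is no independent support. Of the 40 others, many of them near 0 in the main fit, 28 changed sign in at least 1 alternative. Top2b passed in 25 alternatives, Top1 in 15, Msh3 in 13, Ddb1 in 12 and Parp1 in 8. Of the 45 tested genes, 1 passed at an adjusted p under 0.01 and 8 at 0.1, 3 passed with upper-quartile scaling, 1 with library totals, 8 in DESeq2 (6 higher, 2 lower) and 1 with number series as a random effect. With the thalamic score as covariate 0 passed (0 at an unadjusted p under 0.05), and with the CA1 score 0 (4 unadjusted). Without number series 2, 3 or 6, 1 passed each time, and without series 5, 0 (6 unadjusted); these fits compared fewer libraries. Leaving out each library gave 1 to 5.

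Over all genes, 228 passed at 0.01, 2295 at 0.1, 2566 in DESeq2, 293 with number series as a random effect, 1 with the thalamic score and 10 with the CA1 score. Without series 2, 3, 5 or 6, 549, 1206, 317 and 409 passed, and without single libraries 625 to 1229. The split of 751 higher and 550 lower became 593 and 663 with upper-quartile scaling and 487 and 548 with library totals. Between the saline series, 1 of the 45 genes passed at 0.1 and 2 in DESeq2; between the AC-T series, 1 passed in DESeq2. The cause of these changes was not tested. No paired analysis was possible because the mice of the groups share no number.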

Other observations

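Several repair genes share a start region with a neighbouring gene on the opposite strand. In the GENCODE M21 annotation 19 of the 48 genes have a coding partner that starts within 1000 bases, and 15 of these partners were tested. Ddb1 lies head to head with Tkfc, a kinase of dihydroxyacetone. Tkfc was at 8.11 ± 0.458 CPM after AC-T (SD, n = 5) and 7.42 ± 0.592 CPM after saline (SD, n = 6), a log2 difference of 0.13 (edgeR adjusted p = 0.262), beside 0.14 for Ddb1. The difference between the pair was not tested. The library kit keeps the strand of each read; whether the counting used it is not given in the sources used here.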
